A study of Nannospalax ehrenbergi and Mus musculus with 14 samples.

Results

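The miR-17~92 cluster is a group of microRNAs cut from 1 host transcript, and it was read here through 7 mature microRNAs chosen by name: miR-17-5p, miR-17-3p, miR-18a-5p, miR-19a-3p, miR-19b-3p, miR-20a-5p and miR-92a-3p. They are 7 of the 1326 microRNA names listed in the deposited tables, and all 7 were detected in each of the 14 libraries. Small RNA was sequenced from *Spalax*, a wild-caught blind mole rat (*Nannospalax ehrenbergi*) of about 2 to over 10 years, and from C57BL/6 mice of 3 to 4 months. Every animal had received 1 subcutaneous injection of 3-methylcholanthrene (3MCA), a chemical carcinogen, in the left flank of the neck, at 1 mg in *Spalax* and 200 μg in mice, and no untreated animal is among these libraries. The injected side (IS) was the tumor that grew there, and the uninjected side (UIS) came from the opposite side of the treated animals. The labels call the tissue of both sides muscle tissue. *Spalax* Sp600 and Sp976 bore benign granulomas, taken at 14 and 16 months, *Spalax* Sp2240 and Sp2230 bore fibrosarcomas, taken at 18 and 30 months, and mice M512, M1023 and M1019 bore fibrosarcomas, taken at 11, 12 and 14 weeks. Tumor type in *Spalax* is thus tied to animals and to time after injection, which cannot be told apart from it with 2 animals per type.

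A microRNA is a short RNA that guides a silencing complex to messenger RNAs, chiefly by pairing of its seed, bases 2 to 8 of the mature strand, and members with the same seed can act on the same targets. The cluster, also called oncomiR-1, is switched on by MYC and E2F factors, and is amplified or overexpressed in many lymphomas and solid tumors. Its members limit the cell death factor Bim and the cell cycle inhibitor p21, which favours growth and survival. The members fall into the miR-17 seed group (miR-17-5p and miR-20a-5p), the miR-18 group (miR-18a-5p), the miR-19 group (miR-19a-3p and miR-19b-3p) and the miR-92 group (miR-92a-3p), while miR-17-3p comes from the other arm of the miR-17 hairpin.

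In the mouse annotation (GENCODE M21, GRCm38) the 6 hairpins lie on the plus strand of chromosome 14, from 115043671 to 115044506, all within exon 2 of the noncoding host gene Mir17hg (115042879 to 115046727). The 6 hairpin sequences of that annotation are given because the seeds set the groups in which the members are described. Capitals mark the 7 letters of each member's seed. The reads of *Spalax* were also listed under mouse names, and sequences of *Spalax* were not used here.
Mir17: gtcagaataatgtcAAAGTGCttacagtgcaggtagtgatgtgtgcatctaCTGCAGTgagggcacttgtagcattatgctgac
Mir18: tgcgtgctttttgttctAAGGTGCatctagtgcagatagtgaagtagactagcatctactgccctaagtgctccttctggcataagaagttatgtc
Mir19a: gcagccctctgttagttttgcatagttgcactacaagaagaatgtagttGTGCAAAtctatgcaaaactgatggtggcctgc
Mir20a: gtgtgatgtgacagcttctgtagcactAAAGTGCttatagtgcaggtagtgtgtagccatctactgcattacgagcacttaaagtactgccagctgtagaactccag
Mir19b-1: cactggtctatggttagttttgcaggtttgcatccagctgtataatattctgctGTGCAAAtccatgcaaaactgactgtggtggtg
Mir92-1: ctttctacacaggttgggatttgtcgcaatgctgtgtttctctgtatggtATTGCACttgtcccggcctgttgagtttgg

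Mir17 and Mir20a carry the same seed, AAAGTGC, and Mir18 carries AAGGTGC. The Mir17 hairpin holds a further seed, CTGCAGT, in its other arm, that of miR-17-3p. Mir19a and Mir19b-1 share GTGCAAA, and Mir92-1 carries ATTGCAC. Searched on the transcript strand among the 2202 microRNA hairpins of the annotation, AAAGTGC occurred in 0.908%, CTGCAGT in 1.54%, GTGCAAA in 0.590%, and AAGGTGC and ATTGCAC in 11 hairpins each. Paralog hairpins on other chromosomes hold them too: AAAGTGC and CTGCAGT are in Mir106a, AAAGTGC is in Mir106b and Mir93, GTGCAAA is in Mir19b-2 and ATTGCAC is in Mir92-2 and Mir25. Mir19b-2 (X, 52741983 to 52742066) and Mir92-2 (X, 52741838 to 52741928) can yield the same mature miR-19b-3p and miR-92a-3p as the cluster on chromosome 14, so the reads of these 2 members cannot be assigned to 1 locus.

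**Figure D1:**
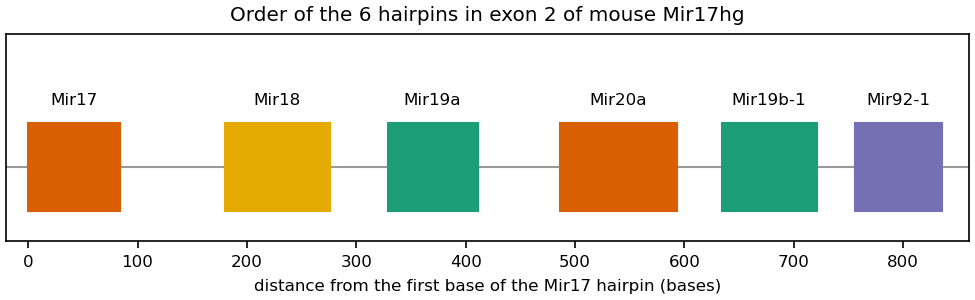
Order of the 6 hairpins along exon 2 of mouse Mir17hg, with the distance in bases from the first base of Mir17 on the horizontal axis and boxes drawn to scale, coloured by seed group. The hairpins span 836 bases, with Mir17 at the 5′ end and Mir92-1 at the 3′ end.

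The libraries held 2034574 to 13982842 reads on microRNAs, and the IS library of fibrosarcoma-bearing *Spalax* Sp2240 held the fewest. A normalized count is the deposited value, reads divided by a size factor of the library. Values of *Spalax* and mice come from tables scaled separately, and are not compared in level. The 6 skeletal muscle microRNAs of a marker list took 35.2 to 37.3% of the reads of *Spalax* UIS libraries and 27.6 to 29.7% of those of mouse UIS libraries. At IS they took 0.00953 to 0.165% in granulomas, 0.0112 to 0.0132% in *Spalax* fibrosarcomas and 0.0100 to 3.92% in mouse fibrosarcomas, with miR-206-3p at 0 reads in granuloma Sp976 and miR-208b-3p at 0 in fibrosarcoma Sp2240. The tissue label thus fits the UIS libraries, while at *Spalax* IS the muscle markers were near absent, with 6 of 6 called lower in each comparison. In mice 2 of 6 were called lower, and the IS share was 0.0100% in M1019, 2.55% in M1023 and 3.92% in M512. Every comparison of the sides is therefore also one of tumor with muscle, and in bulk RNA fewer cells of a type cannot be told apart from less RNA per cell.

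The cluster took a larger share of the microRNA reads at IS than at UIS in all 3 tumor groups. The 7 members together made up 0.208% ± 0.0174 (SD, n = 2) of the reads at granuloma UIS and 0.761% ± 0.105 (n = 2) at granuloma IS. The shares were 0.273% ± 0.0471 (n = 2) at UIS and 2.37% ± 1.16 (n = 2) at IS of *Spalax* with fibrosarcomas, and 0.249% ± 0.0119 (n = 3) and 1.63% ± 0.270 (n = 3) in mice. The lowest IS share of each group was above its highest UIS share. These shares move with the share of the muscle microRNAs, since all names of a library share its reads. Scaled to total reads, the median log2 fold change over all microRNAs tested was 1.90 in granulomas, 1.40 in *Spalax* fibrosarcomas and 2.58 in mice. That of miR-92a-3p, which gave most reads of the 7, was 1.83, 2.95 and 2.58. In granulomas and mice miR-92a-3p thus rose about as much as a typical microRNA. The further results use the normalized counts.

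miR-92a-3p, which targets among others the integrin subunit alpha 5, was by far the most read member, with 84.5 to 96.3% of the reads of the 7 in each library. It ranked between 8 and 42 among all names within a library. At *Spalax* UIS, miR-19b-3p (398 to 964 normalized counts), miR-20a-5p (499 to 778) and miR-17-5p (408 to 541) followed with overlapping ranges. Below them came miR-17-3p (67.8 to 104.7), then miR-18a-5p (29.8 to 43.1) and miR-19a-3p (19.8 to 30.1), the last pair overlapping. At IS of *Spalax* fibrosarcomas, miR-18a-5p and miR-19a-3p lay above miR-17-3p in each library, an order that differs from that at UIS. These levels are numbers of reads, not of molecules.

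In the miR-17 seed group, miR-17-5p, the founding member and a repressor of p21, measured 474 and 508 normalized counts at IS of granulomas Sp600 and Sp976, and 541 and 519.7 at UIS of the same animals. In fibrosarcomas Sp2240 and Sp2230 it measured 2580 and 1324 at IS, and 408 and 501 at UIS. The fibrosarcoma IS libraries stood above every other *Spalax* library, while the granuloma IS libraries lay just below their UIS libraries. In mice miR-17-5p measured 2421, 1236 and 969 at IS of mice M512, M1023 and M1019, and 707 and 718 at UIS of mice M512 and M1023 and 481 in the UIS library with no matching animal number. The IS and UIS ranges did not overlap in mice.

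miR-20a-5p, which has the same seed as miR-17-5p, measured 459 and 356 normalized counts at IS of granulomas Sp600 and Sp976, and 778 and 529 at UIS. Its values in fibrosarcomas Sp2240 and Sp2230 were 2035 and 835 at IS, and 499 and 529.6 at UIS. IS was thus below UIS in both granuloma animals and above it in both fibrosarcoma animals. In mice M512, M1023 and M1019 it measured 1489, 669 and 546 at IS, against 549.6, 819 and 443 at UIS of mice M512, M1023 and the unnumbered library, and the ranges overlapped.

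miR-18a-5p, a member whose processing depends on the RNA-binding protein hnRNP A1, was higher at IS than at UIS in every animal whose sides could be paired. It measured 113.6 and 93.7 normalized counts at IS of granulomas Sp600 and Sp976, and 29.8 and 38.1 at UIS. The fibrosarcomas Sp2240 and Sp2230 gave 571 and 268 at IS, and 43.1 and 36.1 at UIS. In mice M512, M1023 and M1019 it measured 568, 350.5 and 231 at IS, against 61.5 and 56.3 at UIS of mice M512 and M1023 and 28.5 in the unnumbered library. No IS library fell within the UIS range of its species.

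The miR-19 group, which carries much of the cluster's oncogenic activity in lymphoma models, was also higher at IS in every animal whose sides could be paired. miR-19a-3p measured 159.8 and 65.9 normalized counts at IS of granulomas Sp600 and Sp976, against 19.8 and 20.3 at UIS. In fibrosarcomas Sp2240 and Sp2230 it measured 1139 and 275 at IS, against 25.8 and 30.1 at UIS. The IS value of Sp2240 was the highest of the *Spalax* libraries by a wide margin. In mice M512, M1023 and M1019 miR-19a-3p measured 528, 409.8 and 125.8 at IS, against 57.7, 68.6 and 20.4 at UIS of mice M512, M1023 and the unnumbered library.

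miR-19b-3p was the more abundant of the pair, at 9.60 to 42.8 times the level of miR-19a-3p in *Spalax* libraries (ratio of normalized count + 1). It measured 2165 and 1382 normalized counts at IS of granulomas Sp600 and Sp976, and 822 and 912 at UIS. The fibrosarcomas Sp2240 and Sp2230 gave 10946 and 2942 at IS, and 964 and 398 at UIS. All 4 *Spalax* IS libraries were above all 4 UIS libraries. In mice M512, M1023 and M1019 it measured 6121, 5409 and 2300 at IS, against 1184, 1286 and 783 at UIS of mice M512, M1023 and the unnumbered library, again with no overlap.

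miR-92a-3p, the last hairpin of the cluster, measured 27200 and 34897 normalized counts at IS of granulomas Sp600 and Sp976, and 29859.5 and 32599 at UIS. Its values in fibrosarcomas Sp2240 and Sp2230 were 123435 and 61662 at IS, and 31616 and 41776 at UIS. The granuloma ranges overlapped and the fibrosarcoma ranges did not. In mice M512, M1023 and M1019 it measured 62814, 49770.2 and 48707 at IS, against 63504, 41160.5 and 38892 at UIS of mice M512, M1023 and the unnumbered library, and the ranges overlapped.

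miR-17-3p, the less abundant arm of the miR-17 hairpin, measured 69.9 and 88.7 normalized counts at IS of granulomas Sp600 and Sp976, and 80.8 and 80.0 at UIS. In fibrosarcomas Sp2240 and Sp2230 it measured 373 and 195 at IS, and 67.8 and 104.7 at UIS. As for miR-17-5p, the fibrosarcoma IS libraries lay above all other *Spalax* libraries. In mice M512, M1023 and M1019 it measured 397, 336 and 279.6 at IS, against 182.6, 68.6 and 120.8 at UIS of mice M512, M1023 and the unnumbered library, with no overlap.

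**Figure D2:**
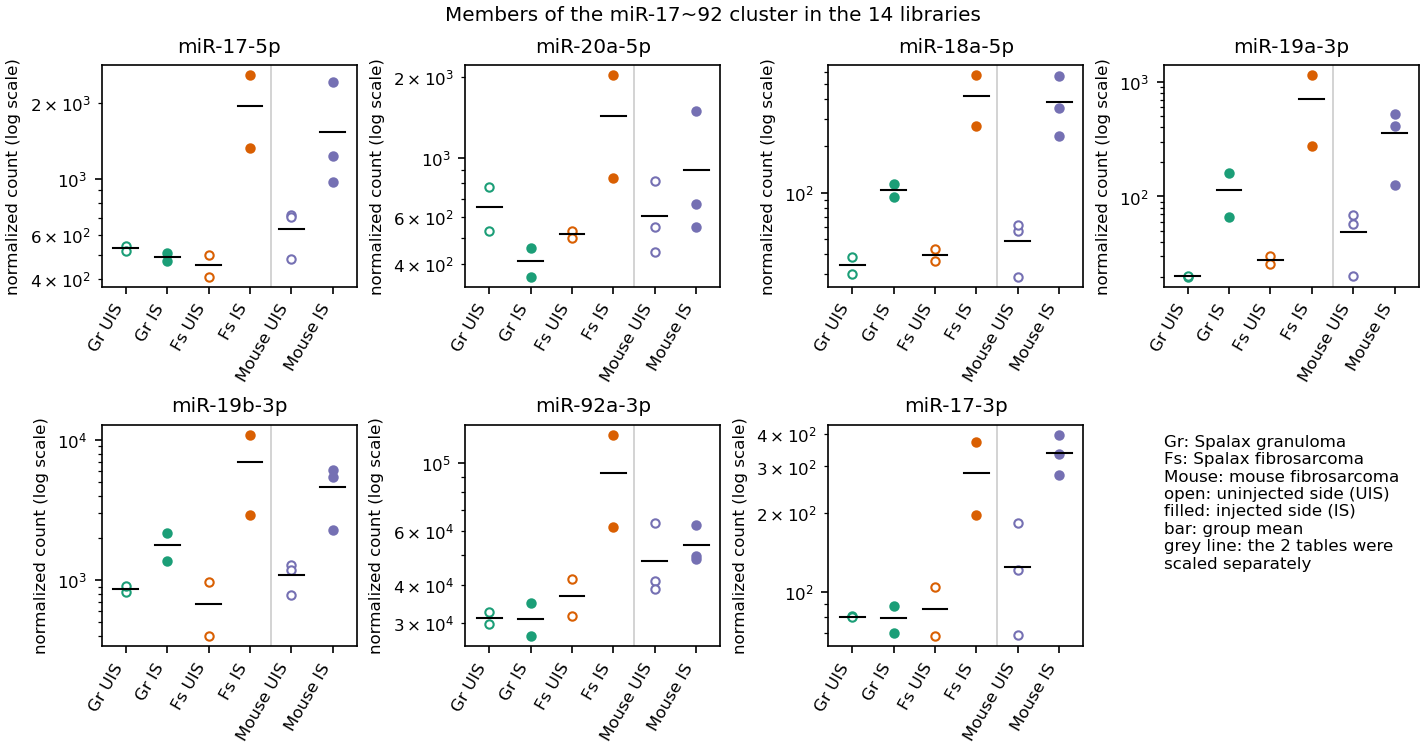
Normalized counts of the 7 members on log axes, 1 panel per member, with 1 point per library, open for UIS and filled for IS, and a bar at each group mean; the *Spalax* and mouse tables were scaled separately. IS points of *Spalax* fibrosarcomas lie above the UIS points in each panel, with the library of animal Sp2240 highest, while for miR-17-5p, miR-20a-5p, miR-92a-3p and miR-17-3p the granuloma IS points lie near or below UIS on this scaling and above it when libraries are scaled to total reads.

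In *Spalax* fibrosarcomas, 6 of the 7 members rose at IS, and the miR-19 and miR-18 groups rose most. miR-19a-3p was 19.4-fold higher (log2 fold change 4.28 ± 0.75 SE, adjusted p = 0.00456), miR-18a-5p was 9.69-fold higher (3.28 ± 0.52, adjusted p = 0.00300) and miR-19b-3p was 9.14-fold higher (3.19 ± 0.70, adjusted p = 0.0107). miR-17-5p was 4.08-fold higher (2.03 ± 0.44, adjusted p = 0.0107). Adjusted p-values are from limma on log2(normalized count + 1), by Benjamini-Hochberg over all 447 *Spalax* or 547 mouse microRNAs tested, and all 7 members passed the filter on low values. miR-17-3p (1.67 ± 0.51, adjusted p = 0.0355) and miR-92a-3p (1.26 ± 0.39, adjusted p = 0.0379) also passed, but with each animal's sides paired they had adjusted p = 0.0820 and 0.0662. Over all alternatives tried, the adjusted p of miR-17-3p ran from 0.00160 to 0.221 and that of miR-92a-3p from 0.00104 to 0.205. miR-20a-5p did not pass (1.34 ± 0.52, 95% interval 0.13 to 2.55, adjusted p = 0.0781).

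Of all 447 tested, 15.2% rose in *Spalax* fibrosarcomas, and the median log2 fold change was 2.03 over the members and -0.23 over all. The lowest fibrosarcoma IS library exceeded the highest UIS library for all 7 members, against 32.2% of the microRNAs tested. Without the UIS library of Sp2230, 2 members passed, and without that of Sp2240, 3 passed. The sizes also moved with single libraries. The log2 fold change of miR-19a-3p was 3.26 without the IS library of Sp2240 and 5.30 without that of Sp2230. That of miR-19b-3p was 2.25 and 4.14 without these, 2.56 without the UIS library of Sp2230, where it did not pass (adjusted p = 0.0832), and 3.83 without that of Sp2240. Without the IS library of Sp2240, which has the highest member values, miR-17-3p (adjusted p = 0.102) and miR-92a-3p (adjusted p = 0.119) no longer passed. The leukocyte microRNAs miR-223-3p, miR-142a-3p and miR-142a-5p rose as well (3 of 3 on the list), with summed shares of 0.0307 to 0.0457% at UIS and 0.772 to 2.25% at IS, again highest in Sp2240, none of them being at 0. Their part in the members' changes was not tested.

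In mouse fibrosarcomas, 4 of the 7 members rose at IS, again led by the miR-18 and miR-19 groups. miR-18a-5p was 7.61-fold higher (log2 fold change 2.93 ± 0.51, adjusted p = 0.00422), miR-19a-3p was 6.81-fold higher (2.77 ± 0.71, adjusted p = 0.0158) and miR-19b-3p was 3.99-fold higher (2.00 ± 0.46, adjusted p = 0.0106). miR-17-3p was 2.89-fold higher (1.53 ± 0.46, adjusted p = 0.0272), but had adjusted p = 0.0931 with the animal pairing, and 0.000370 to 0.0985 over all alternatives. In mice that pairing rests on M1023 and M512 alone, the mice with both sides paired. miR-17-5p (1.19, 95% interval 0.15 to 2.23, adjusted p = 0.0514), miR-20a-5p (0.48, -0.67 to 1.63, adjusted p = 0.414) and miR-92a-3p (0.19, -0.51 to 0.90, adjusted p = 0.585) did not pass.

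Of the 547 microRNAs tested in mice, 32.2% rose, and the median log2 fold change was 1.53 over the members and 0.21 over all. IS libraries all exceeded UIS libraries for 5 of the 7 members, against 36.6% of those tested. miR-17-5p passed with edgeR and DESeq2 (adjusted p = 0.0186 to 0.0472), and without the IS library of mouse M1019 (adjusted p = 0.0363), where the log2 fold change of miR-19a-3p was 3.39. Leukocyte microRNAs rose for 2 of 3 names, with summed shares of 0.0435 to 0.0567% at UIS and 0.314 to 1.57% at IS, and none was at 0. Mouse M512, which had the highest values of all 7 members at IS, had the lowest leukocyte share and the highest muscle share of the 3 tumors. The part of either in the members' changes was not tested.

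In granulomas, 2 of the 7 members rose at IS, miR-19a-3p and miR-18a-5p, a share near the 25.5% of all 447 microRNAs tested. miR-19a-3p was 4.92-fold higher (log2 fold change 2.30 ± 0.75, adjusted p = 0.0381) and miR-18a-5p was 3.00-fold higher (1.59 ± 0.52, adjusted p = 0.0379). With the animal pairing miR-18a-5p had adjusted p = 0.0685, and 0.00150 to 0.157 over all alternatives. miR-19b-3p, of the same seed as miR-19a-3p, did not pass (1.00, 95% interval -0.64 to 2.63, adjusted p = 0.274). The other 4 members had log2 fold changes of -0.02 to -0.66 that did not pass, namely miR-17-5p (-0.11, 95% interval -1.14 to 0.92), miR-17-3p (-0.03, -1.21 to 1.15), miR-92a-3p (-0.02, -0.93 to 0.90) and miR-20a-5p (-0.66, -1.88 to 0.55). Scaled to total reads these 4 lay above 0, at 1.18 to 1.83.

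The share of microRNAs that rose in granulomas was 25.5% of 447, and the median log2 fold change was -0.02 over the members and 0.13 over all. The granuloma IS libraries exceeded the UIS libraries for 3 of the 7 members, miR-18a-5p, miR-19a-3p and miR-19b-3p, against 41.4% of those tested, so the members' share is near that of all microRNAs. Both calls were lost without granuloma IS Sp600, either granuloma UIS library or either fibrosarcoma UIS library, and that of miR-18a-5p without granuloma IS Sp976 (adjusted p = 0.0802). The log2 fold change of miR-19a-3p was 1.67 without granuloma IS Sp600 and 2.93 without Sp976. The fibrosarcoma libraries enter through the shared estimate of the spread. Mesenchymal microRNAs (miR-199a-3p, miR-199a-5p and miR-214-3p, 3 of 3) and leukocyte microRNAs (3 of 3) rose in granulomas, the mesenchymal share going from 0.390 to 0.522% at UIS to 10.7 to 11.1% at IS and the leukocyte share from 0.0238 to 0.0337% to 0.617 to 0.745%. None was at 0, and their part in the members' changes was not tested. The mesenchymal microRNAs also rose in mouse fibrosarcomas (3 of 3, 0.231 to 0.627% at UIS and 4.25 to 8.77% at IS). In *Spalax* fibrosarcomas 0 of 3 were called, with shares of 0.621 to 1.00% at UIS and 3.02 to 5.31% at IS.

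**Figure D3:**
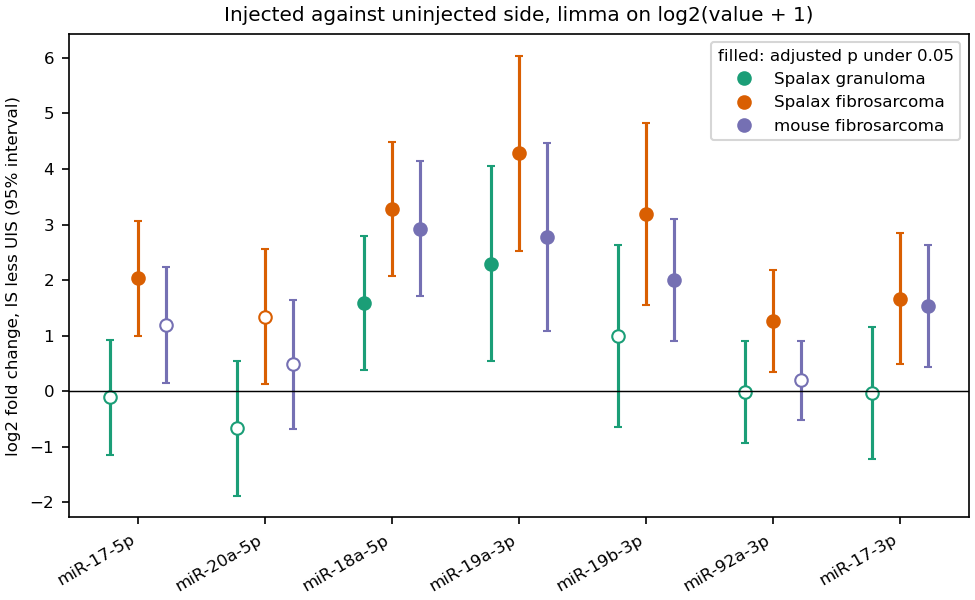
Log2 fold changes of IS against UIS with 95% intervals from limma, for the 7 members in granulomas, *Spalax* fibrosarcomas and mouse fibrosarcomas, filled where the adjusted p was under 0.05. miR-18a-5p and miR-19a-3p are filled in all 3 groups, and the 4 granuloma estimates below 0, between -0.66 and -0.02, rise above 0 when libraries are scaled to total reads.

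Set against each other, the tumors of *Spalax* differed in all members in the same direction, with 4 of 7 past the threshold. At IS, miR-17-5p was 3.76-fold lower in granulomas than in fibrosarcomas (log2 difference -1.91 ± 0.44, adjusted p = 0.0216), miR-18a-5p 3.76-fold lower (-1.91 ± 0.52, adjusted p = 0.0407), miR-92a-3p 2.83-fold lower (-1.50 ± 0.39, adjusted p = 0.0358) and miR-17-3p 3.40-fold lower (-1.77 ± 0.51, adjusted p = 0.0488). miR-19a-3p (-2.44, 95% interval -4.19 to -0.68, adjusted p = 0.0610), miR-20a-5p (-1.69, -2.90 to -0.48, adjusted p = 0.0604) and miR-19b-3p (-1.71, -3.35 to -0.08, adjusted p = 0.161) did not pass. Both granuloma libraries were below both fibrosarcoma libraries for 7 of 7 members. Among all microRNAs, 3.36% were called lower in granulomas, and 26.6% had granuloma libraries that were all lower. The log2 difference had a median of -1.77 over the members and -0.27 over all tested.

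This difference between the tumors was the same in direction under every alternative but lost its calls easily. With a library left out, its group held a single library, and whether members passed depended on which library that was. The same dependence over all microRNAs is not given here, so it was not shown to be particular to the members. The log2 difference then ran from -2.39 to -1.43 for miR-17-5p and from -2.66 to -0.77 for miR-19b-3p. The leukocyte and skeletal muscle lists did not pass between the tumors (0 of 3 and 0 of 6 by limma, also 0 at an unadjusted p under 0.05), while of the mesenchymal microRNAs miR-199a-5p and miR-214-3p were higher in granulomas (2 of 3, summed shares of 10.7 to 11.1% against 3.02 to 5.31%). The part of tissue makeup in the members' difference was not tested.

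The UIS libraries of the same animals gave no call for the members, and limma called 0 of all 447 microRNAs tested. Of those 447, 5 had an unadjusted p under 0.05 in limma, so the lack of calls is not particular to the members. Between granuloma-bearing and fibrosarcoma-bearing *Spalax* the members' UIS levels differed by log2 values of -0.45 to 0.48, with adjusted p = 1.00 in limma for each, 0 of 7 at an unadjusted p under 0.05, and 0 of 7 by edgeR or DESeq2. The 95% interval was -0.80 to 1.26 for miR-17-5p, and the widest were those of miR-19a-3p (-2.21 to 1.30) and miR-19b-3p (-1.16 to 2.12).

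The change from UIS to IS was smaller in granulomas than in fibrosarcomas for all 7 members, but no member passed the test of that difference in limma. The difference of the changes was -2.14 ± 0.63 on the log2 scale for miR-17-5p (adjusted p = 0.0898), -2.01 ± 0.73 for miR-20a-5p (adjusted p = 0.153) and -1.28 to -2.20 for the other members (adjusted p = 0.229 to 0.367). Of the members, 3 had an unadjusted p under 0.05, edgeR called 0 and DESeq2 called 1, miR-17-5p (adjusted p = 0.0128, against 0.0128 to 0.287 over its alternatives). In limma 3.80% of the 447 microRNAs passed this test in either direction, all 17 of them with a difference above 0. Over all 447, 95 had an unadjusted p under 0.05 in limma, and edgeR with TMM factors called 21. No DESeq2 count over all microRNAs is given here. The median was -1.98 over the members and -0.10 over all tested.

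Ratios between members of a single library, taken on normalized count + 1, depend on the scaling only through that added 1, and 3 of the 5 ratios moved in the same direction in all 6 animals whose sides could be paired. The ratio of miR-18a-5p to miR-17-5p was 2.87-fold higher at IS than at UIS (mean log2 difference 1.52 ± 0.38, SD, n = 6, higher in 6 of 6 animals). It was 0.0567 to 0.108 in *Spalax* UIS libraries and 0.186 to 0.241 in *Spalax* IS libraries, with no overlap and with granulomas and fibrosarcomas in the same range. In mice it was 0.0613 to 0.0882 at UIS and 0.235 to 0.284 at IS.

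The ratios within the seed groups also kept 1 direction. The ratio of miR-17-5p to miR-20a-5p was 1.57-fold higher at IS (mean log2 difference 0.65 ± 0.25, SD, n = 6, higher in 6 of 6), from 0.696 to 0.983 at *Spalax* UIS to 1.03 to 1.59 at *Spalax* IS. The ratio of miR-19b-3p to miR-19a-3p was 2.02-fold lower at IS (-1.01 ± 0.63, SD, n = 6, lower in 6 of 6), from 12.8 to 42.8 at *Spalax* UIS to 9.60 to 20.7 at *Spalax* IS. These ranges overlapped, and fibrosarcoma Sp2230 went only from 12.8 at UIS to 10.7 at IS. Each of these 3 ratios had p = 0.0312 in the exact two-sided sign-flip permutation test, the smallest that 6 pairs allow, and 0.0521 after adjustment over the 5 ratios (Benjamini-Hochberg), which did not pass. If the UIS library with no matching animal number is assumed to be that of mouse M1019, which no label states, the exact test gives an adjusted p of 0.0260 for each of the 3 (n = 7).

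The arms of the miR-17 hairpin gave no such pattern. The ratio of miR-17-5p to miR-17-3p had a mean log2 difference of -0.05 ± 0.77 (SD, n = 6, higher at IS in 4 of 6, exact permutation p = 0.938, adjusted p = 0.938). Mouse M1023 alone fell by 1.49 on the log2 scale, and without it the mean was 0.24. The ratio of miR-92a-3p to miR-17-5p had a mean difference of -0.61 ± 0.70 (n = 6, exact permutation p = 0.125, adjusted p = 0.156). It was lower at IS in all 4 paired animals with fibrosarcomas, by log2 differences of -0.51 to -1.79, and higher in both with granulomas, by 0.06 and 0.13.

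**Figure D4:**
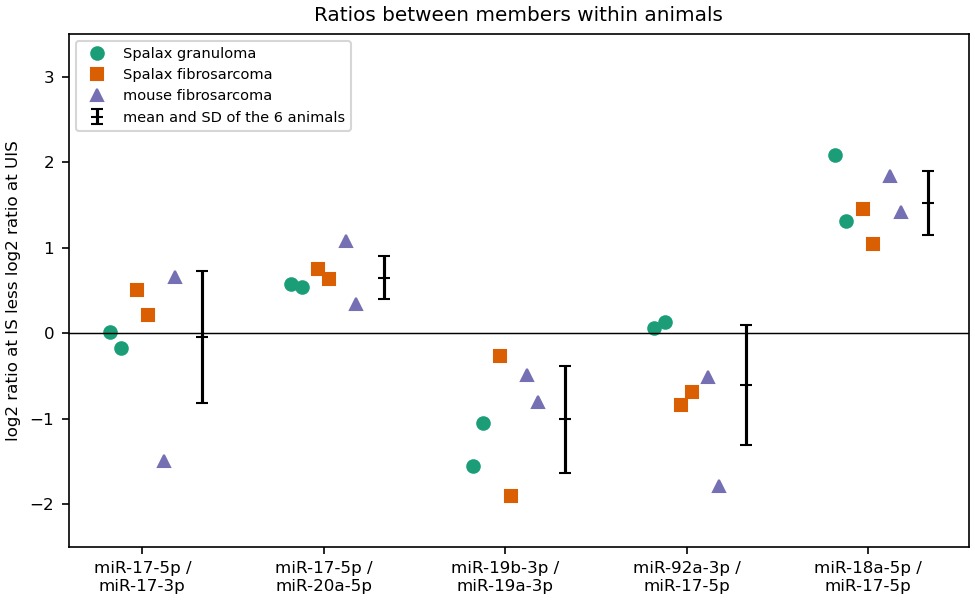
Log2 ratio of 5 pairs of members at IS less that at UIS of the same animal, with 1 point per animal and the mean with SD of the 6 animals. All 6 animals lie above 0 for miR-18a-5p to miR-17-5p and for miR-17-5p to miR-20a-5p, and below 0 for miR-19b-3p to miR-19a-3p.

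Across libraries the members moved together to differing degrees. Over the 8 *Spalax* libraries, Pearson's r of log2(normalized count + 1) between members ran from 0.66 (miR-18a-5p with miR-20a-5p) to 0.99 (miR-17-3p with miR-92a-3p), with a median of 0.87 over the 21 pairs. Over the 6 mouse libraries it ran from 0.34 (miR-17-3p with miR-20a-5p) to 0.99 (miR-19a-3p with miR-19b-3p), with a median of 0.77. These values describe libraries that share the contrast of tumor with muscle and the size factors.

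The other arms of the same hairpins are mostly degraded after processing and were read less. Of 5 other arms listed, 3 passed the filter on low values in each species, miR-18a-3p, miR-20a-3p and miR-92a-1-5p, and miR-19a-5p and miR-19b-1-5p did not, with at most 22 and 9 reads in a library. In *Spalax* fibrosarcomas 2 of 3 rose: miR-92a-1-5p, the passenger of miR-92a-3p from the chromosome 14 hairpin, went from 21.7 and 24.8 normalized counts at UIS to 124 and 423 at IS (log2 fold change 3.25 ± 0.76, adjusted p = 0.0138), and miR-18a-3p from 7.54 and 20.5 to 43.6 and 141 (2.56 ± 0.74, adjusted p = 0.0308, but 0.0554 with the animal pairing). In mice miR-92a-1-5p rose from between 123 and 130.4 at UIS to between 410.2 and 1045 at IS (2.33 ± 0.43, adjusted p = 0.00531), and miR-18a-3p from between 17.6 and 40.4 to between 120.04 and 140.2 (2.28 ± 0.44, adjusted p = 0.00586, but 0.0745 with the pairing). miR-92a-1-5p thus rose in mice while its partner miR-92a-3p did not pass, a difference between arms that was not tested. In granulomas 0 of 3 passed in limma, edgeR or DESeq2, and 0 of 3 had an unadjusted p under 0.05, while 2 of 3 passed when libraries were scaled to total reads. Of all microRNAs tested, 15.2% rose in *Spalax* fibrosarcomas, 32.2% in mice and 25.5% in granulomas under the deposited scaling. Total scaling called 303 of 447 in granulomas, in either direction.

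The paralog clusters on other chromosomes, Mir106b with Mir93 and Mir25 and the X-linked cluster of Mir106a, carry the same seeds. Of 17 paralog names listed, 15 had a row in the tables and 9 passed the filter on low values in each species. In *Spalax* fibrosarcomas 1 of 9 rose, miR-106b-5p, of the miR-17 seed group, from 410.2 and 444 at UIS to 1202 and 1924 at IS (1.83 ± 0.41, adjusted p = 0.0113), and DESeq2 called 3 of 9. In limma 6 of 9 had an unadjusted p under 0.05, against 215 of all 447 tested. These were both arms of Mir106b, Mir93 and Mir25, with log2 fold changes of 0.92 to 1.83. For each of them both IS libraries lay above both UIS libraries, as for 32.2% of all 447 tested. These names were picked by their p in the same comparison, so this adds no further support. In mice 1 of 9 rose, miR-25-5p (1.53 ± 0.48, adjusted p = 0.0321, but 0.169 with the pairing). In granulomas limma called 0 of 9, none had an unadjusted p under 0.05, edgeR called 0 and DESeq2 called 1. Under the deposited scaling 15.2%, 32.2% and 25.5% of all microRNAs tested rose in these comparisons. Scaled to total reads, 7 of 9 paralogs passed in granulomas and in *Spalax* fibrosarcomas and 9 of 9 in mice. Of all microRNAs, 303 of 447, 234 of 447 and 404 of 547 then passed in either direction. Without the muscle microRNAs 5, 6 and 9 paralogs passed, against 272, 201 and 370 of all microRNAs. Between the tumors miR-25-3p, of the miR-92 seed group, was lower in granulomas (-1.30 ± 0.36, limma adjusted p = 0.0427), as were 3.36% of all 447 tested. However, edgeR and limma without the trend called 0 of 9, limma without the filter on low values called 0 of 13, and DESeq2 called 4 of 9. For the DESeq2 counts no share over all microRNAs is given here. The median log2 fold change over the 9 was 0.32 in granulomas, 1.11 in *Spalax* fibrosarcomas and 0.45 in mice, and whether the members' changes exceed the paralogs' was not tested.

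Of the X-linked paralogs, miR-106a-5p had 0 or 1 reads in each *Spalax* library and 1 to 64 in mice, and miR-18b-5p had at most 4 reads in a *Spalax* library and 21 in a mouse library. miR-363-3p, of the miR-92 group, was read more and measured 3.27 and 521 normalized counts at IS of *Spalax* fibrosarcomas, 460 and 1086 at UIS, 17.7 and 23.7 at granuloma IS and 113 and 196 at granuloma UIS. Neither change of miR-363-3p passed in limma, with log2 fold changes of -2.80 in granulomas (adjusted p = 0.253) and -3.91 in fibrosarcomas (adjusted p = 0.142). Reads of near-identical members such as miR-17-5p, miR-20a-5p, miR-106a-5p and miR-93-5p may have been split between names by the mapping, which was not tested.

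Outside these lists, the microRNAs whose profile over the 8 *Spalax* libraries was most like the mean of the members were miR-16-5p (Pearson's r = 0.990), miR-350-3p (0.965) and miR-350-5p (0.940). miR-16-5p, which restrains cyclins and Bcl2, measured 99766 to 114622 normalized counts at UIS, 132307 to 133867 at granuloma IS and 189349 to 274248 at fibrosarcoma IS. Over the 6 mouse libraries the most alike were miR-301b-3p (0.990), miR-467a-3p (0.970) and miR-467b-5p (0.962). miR-301b-3p measured 4.07 to 13.5 at mouse UIS and 39.5 to 136 at mouse IS. It was higher at IS in *Spalax* too, at 22.5 to 26.6 in granulomas and 52.1 to 88.2 in fibrosarcomas. The *Spalax* UIS values were 2.54 to 2.83 and 3.61 to 4.31, from 2 to 4 reads. The microRNAs named for mice and for *Spalax* did not overlap, and miR-467a-3p and miR-467b-5p had 0 reads in all *Spalax* libraries. The correlations are descriptions over few libraries that share the contrast of the sides.

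The size of each change depended on how the libraries were scaled. Scaling to total reads moved the median log2 fold change across every microRNA tested from 0.13 to 1.90 in granulomas, from -0.23 to 1.40 in *Spalax* fibrosarcomas and from 0.21 to 2.58 in mice. The members then had log2 fold changes of 1.18 to 4.07 in granulomas with 6 of 7 called. They had 2.95 to 5.93 in *Spalax* fibrosarcomas and 2.58 to 5.28 in mice with 7 of 7 called in each. Of all microRNAs tested, this scaling called 303 of 447, 234 of 447 and 404 of 547 in either direction. Another scaling moves all microRNAs of a comparison by nearly the same log2 amount, so distances from their median hardly change by construction. Relative to that median, miR-19a-3p lay 2.17 above it in granulomas and 4.51 above it in *Spalax* fibrosarcomas under the deposited scaling, and 2.17 and 4.53 above it under total scaling. miR-17-5p lay -0.24 and -0.17 from the median in granulomas, and 2.26 and 2.31 in *Spalax* fibrosarcomas. Under total scaling 83.5% of the called microRNAs were higher at granuloma IS, 82.5% at *Spalax* fibrosarcoma IS and 92.3% at mouse IS, against 52.8%, 40.7% and 55.7% under the deposited scaling.

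**Figure D5:**
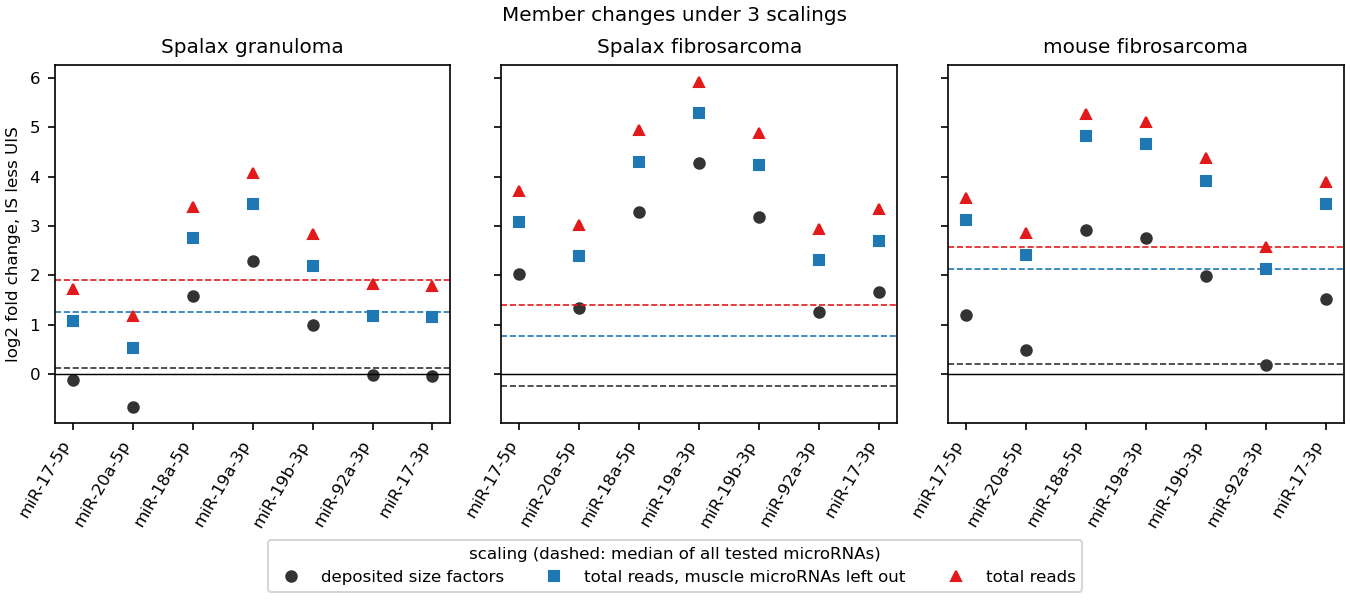
Log2 fold changes of IS against UIS for the 7 members under the deposited size factors, under total reads without the 6 muscle microRNAs, and under total reads, with dashed lines at the median of all microRNAs tested. All members move up with the median, and in granulomas miR-17-5p, miR-20a-5p, miR-92a-3p and miR-17-3p go from below 0 to above it while staying below the dashed line.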

How the data were processed

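The 7 members, the other lists and the ratios were chosen with earlier results of these data known. The authors trimmed adaptors, mapped reads with mirDeep and compared sides with DESeq2, and the genome build of this mapping is not given in the sources used here. The deposited values are a signal per microRNA and library, reads divided by a DESeq2 size factor, and 100% of them came out as whole reads within 0.001 reads, or proportionally more for the highest counts. The *Spalax* factors were computed over all 14 libraries and the mouse factors over 6. Of the *Spalax* table, 5 mouse columns were not used. Groups and animals were taken from the sample labels. The mouse UIS column whose number is in no label was used as an unpaired replicate.

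The main test was limma 3.58.1 (R 4.3.3) with a mean trend on log2(value + 1), keeping microRNAs that reached 10 in 2 or more *Spalax* libraries (447 names) or 3 or more mouse libraries (547 names), with the Benjamini-Hochberg threshold at 0.05. A fold change on this scale understates the change of low microRNAs. The 8 *Spalax* libraries shared a fit, and the mouse libraries had their own. Alternatives were edgeR 4.0.16 and DESeq2 1.42.0 on the recovered reads, total scaling with and without muscle microRNAs, a pseudocount of 0.1, no filter, limma without the trend, the animal as a block and leaving out each library. With the animal as a block, only M1023 and M512 inform the mouse change between sides. Ratios were tested by exact sign flips (scipy 1.17.1). The self-test on simulated reads recovered nearly all changes put in. Those reads were drawn around a single profile with a fixed spread and without the near absence of muscle microRNAs at IS. The self-test therefore cannot show how reliable the calls or the scaling are in these libraries. Libraries of a group differed beyond sampling noise (lowest ratio of chi-square to its degrees of freedom 327.1), so each counted as a replicate. Sides pair by animal in the labels. Deviations from the group means of both sides correlated at 0.0933 and 0.00405 in the *Spalax* groups and -0.107 and 0.122 in mice M1023 and M512.

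Named microRNAs were the members, the other arms of their hairpins, the paralogs and the 3 microRNAs per species with the highest correlation to the mean of the members. The marker lists not described with the results gave these shares of the reads over all libraries: red cells 0.0522 to 0.822%, lymphocytes (miR-150-5p) 0.00894 to 0.153%, endothelium 0.323 to 1.64%, smooth muscle 1.17 to 4.05% and epithelium 0.000121 to 0.00633%. In limma endothelium and smooth muscle were lower at IS for 2 of 2 names in all 3 comparisons, lymphocytes in granulomas, red cells in none, and epithelium was higher for 1 of 3 names in each *Spalax* comparison. Hairpins are from GENCODE M21.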

Additional observations from a re-analysis of the deposited data

Results flagged for a closer look

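The change from UIS to IS went opposite ways in the granulomas and the fibrosarcomas of *Spalax* for 2 members and 1 ratio, in both animals of each type. miR-17-5p lay below UIS by log2 changes of -0.19 and -0.03 in granulomas Sp600 and Sp976 and was above it by 2.66 and 1.40 in fibrosarcomas Sp2240 and Sp2230, a difference of the changes of -2.14 (limma, adjusted p = 0.0898). For miR-20a-5p the changes were -0.76 and -0.57 against 2.03 and 0.66, a difference of -2.01 (limma, adjusted p = 0.153). Neither passed the threshold, and both mean granuloma changes were above 0 under total scaling. The log2 ratio of miR-92a-3p to miR-17-5p changed by 0.06 and 0.13 in granulomas and by -0.69 and -0.84 in fibrosarcomas, a difference of 0.859 between the means that was not tested. Ratios depend on the scaling only through the 1 added to each value.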

How the results depend on the processing

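Of 686 values of single members under alternative settings, 569 kept their direction and their side of the threshold, 73 no longer passed, 25 newly passed and 19 changed direction. miR-18a-5p and miR-19a-3p passed under all alternatives in the *Spalax* and mouse fibrosarcoma comparisons. The number of members called in granulomas went from 2 to 6 with total scaling, 4 with total scaling without muscle microRNAs, 0 with no filter and 1 with the animal as a replicate block, and from 0 to 2 with a library left out. In *Spalax* fibrosarcomas the count was 6, and 4 with the replicate block, 4 with no filter and 2 to 7 with a library left out. In mice it was 4, then 7 with total scaling with or without muscle microRNAs, 3 with the replicate block and 3 to 5 with a library left out. Between the tumors it was 4, then 7 with DESeq2, 1 with no filter and 0 to 7 with a library left out. The difference of the changes had 0 calls, and 1 with DESeq2. Counts over all microRNAs with a library left out are not given here, so the swings were not shown to be particular to the members. Of all microRNAs tested, total scaling called 303 of 447 in granulomas, 234 of 447 in *Spalax* fibrosarcomas and 404 of 547 in mice. Without the muscle microRNAs total scaling called 272 of 447, 201 of 447 and 370 of 547.

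Granuloma log2 fold changes turned positive with total scaling for miR-17-5p (1.73), miR-17-3p (1.79), miR-20a-5p (1.18) and miR-92a-3p (1.83), and with total scaling without muscle microRNAs (1.08, 1.15, 0.53 and 1.18). Near 0, miR-17-3p turned to 0.0079 with edgeR and TMM factors and 0.029 with edgeR or DESeq2 and DESeq2 size factors, and miR-92a-3p to 0.020 and 0.046. With a library left out, miR-17-3p ran from -0.20 to 0.14 and miR-92a-3p from -0.20 to 0.16 in granulomas, and between the UIS groups miR-17-3p ran from -0.38 to 0.24 and miR-19b-3p from -0.15 to 1.12. With each animal left out in turn, the mean log2 differences ran from -0.19 to 0.24 for miR-17-5p to miR-17-3p, 0.56 to 0.71 for miR-17-5p to miR-20a-5p, -1.16 to -0.83 for miR-19b-3p to miR-19a-3p, -0.76 to -0.37 for miR-92a-3p to miR-17-5p and 1.41 to 1.62 for miR-18a-5p to miR-17-5p. With the unnumbered UIS library assumed to be that of mouse M1019, 3 ratios newly passed, at 0.66, -1.01 and 1.59. Unless a setting by its construction used fewer samples or more microRNAs, the cause was not tested. The few animals and the 2034574 reads of the shallowest library limit the precision.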
